A study of Rattus norvegicus with 6 samples.

Results

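The genes described here encode the proteins of the cytoplasmic ribosome in rat brain cells. They were chosen by symbol, as those beginning Rpl or Rps followed by a digit together with Rpsa, Rplp0, Rplp1 and Rplp2, without the Rps6k kinases. The rule found 83 of the 15227 genes in the files. Of these members, 67 carry the symbol of a canonical ribosomal protein (27 of the small and 40 of the large subunit), 15 carry the symbol of a paralog or copy such as Rpl22l1, and 1, Rps19bp1, names a protein that binds Rps19 and is no part of the ribosome. Every member is counted below, and the canonical members are also given alone. Some canonical genes, among them Rps14, Rpl22 and Rpl38, were not analysed here.

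Ribosomes translate messenger RNA into protein. Their small subunit reads the codons and their large subunit joins the amino acids, and most ribosomal proteins are needed in equal number in every ribosome. Messenger RNAs of ribosomal proteins begin with a terminal oligopyrimidine tract (TOP), a C followed by a run of C and T at the very start of transcription. In mammals this tract lets the kinase mTOR raise or hold back the translation of the whole family together. These mRNAs are abundant in growing cells and lymphocytes, and their share of a cell's transcripts differs between cell types.

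The transcripts come from droplet libraries of single cells (10x Genomics) from the cerebral hemisphere of rats, 3 libraries of normal control animals (NC) and 3 of animals poisoned with carbon monoxide (CO). The poisoned animals breathed the gas at 1000 ppm during 40 minutes and then at 3000 ppm during 20 minutes, per the design text, and were accepted as severely poisoned by their lowered consciousness and carboxyhemoglobin above 60%. Strain, sex, age and the time between exposure and sampling are not given in the sources used here, and the tissue was digested with trypsin before sequencing. The description names 3 rats per group, but the gene values of libraries within a group differed hardly more than parts of 1 pool of cells would. The variance between libraries, relative to that between cells, averaged 1.02 in NC and 1.09 in CO, where parts of 1 pool give 1; for the members it averaged 0.816 and 1.04. Within single classes the members' ratio was higher in places, with 1.79 in CO astrocyte-like, 1.53 in CO border-associated macrophage-like, 1.498 in NC oligodendrocyte-like and 1.41 in CO endothelial-like cells, and lowest in CO choroid plexus-like cells (0.647). Each group was counted as 1 sample. No test was made, the difference between NC and CO has no replicate check, and the value of each library is shown as a description.

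The libraries held 39494470 to 47322264 unique molecular identifiers (UMIs, 1 for each captured transcript). Of 42293 barcodes, 38027 passed a minimum of 500 UMIs and 200 genes, and 1 barcode occurred in more than 1 library. Cells were sorted into classes by marker genes, which placed 29563 cells and left out 2869 barcodes with the markers of more than 1 class. The class names below mean cells like that type by these markers. NC and CO were compared in the 10 classes with at least 100 cells in each group: microglia-like, border-associated macrophage-like, monocyte- or dendritic-like, endothelial-like, pericyte-like, oligodendrocyte-like, astrocyte-like, ependymal-like, choroid plexus-like and neuroblast-like cells.

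Start sites were read from RefSeq promoters of the GRCr8 build, which matched 63 of the 83 members by symbol. Within 30 bases on either side of the start, on the gene's own strand, CTTTC occurred in 53.7% of 54 canonical promoters against 7.69% of all 33469 promoters. CCTTT, which shares its CTTT with CTTTC where both overlap, occurred in 44.4% against 6.98%, CTTCC in 40.7% against 12.1%, and CTTTT in 22.2% against 7.18%. Any of these 4 words stood in 79.6% of canonical promoters and 26.5% of all promoters. On the opposite strand the same shares were 20.4% and 27.6%. The windows below run from 40 bases before the start to 20 bases from the start on, 5′ to 3′ on the gene's strand, with any of the 4 words in capitals. They belong to members on which later results turn: 4 of those that were higher in CO in nearly every class (Rps21, Rps27, Rpl41, Rps28), the stalk protein Rplp1, 2 that were not (Rpl12, Rpl10), and the paralog Rpl22l1.
Rps21 (chr3:187723998-187724057, + strand): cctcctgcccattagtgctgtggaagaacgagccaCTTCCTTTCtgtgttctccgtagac
Rps27 (chr2:177964587-177964646, - strand): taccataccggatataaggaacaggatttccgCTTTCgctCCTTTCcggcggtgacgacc
Rpl41 (chr7:1563478-1563537, - strand): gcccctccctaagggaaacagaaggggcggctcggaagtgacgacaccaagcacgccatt
Rps28 (chr7:15311314-15311373, - strand): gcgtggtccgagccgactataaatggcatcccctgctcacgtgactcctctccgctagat
Rplp1 (chr8:71290853-71290912, - strand): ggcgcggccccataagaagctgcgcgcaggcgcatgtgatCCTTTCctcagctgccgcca
Rpl12 (chr3:36661900-36661959, + strand): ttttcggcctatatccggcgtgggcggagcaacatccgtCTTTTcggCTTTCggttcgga
Rpl10 (chrX:157205810-157205869, + strand): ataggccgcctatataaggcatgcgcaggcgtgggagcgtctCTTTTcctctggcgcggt
Rpl22l1 (chr2:113683156-113683215, + strand): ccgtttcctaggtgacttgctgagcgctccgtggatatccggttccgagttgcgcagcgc
A match is a description of these letters and no proof of a working tract, and a window with none says only that these words are not in it. Words at the start stood both in members that were higher in CO (Rps21, Rps27) and in members that were not (Rpl12, Rpl10). The windows of Rpl41 and Rps28, which were also higher in CO, held none of the 4 words. No promoter window was available for Rps29.

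Ribosomal protein genes took very different parts of the transcripts in different cell classes. In NC, the members held 23.8% of the UMIs of T-like cells, where single libraries lay between 23.0% and 24.7%, and 2.82% of those of astrocyte-like cells, with libraries between 2.58% and 3.18%. Lymphoid and stromal classes with too few cells for a comparison were also high, with 14.4% in natural killer-like cells (28 cells), 14.1% in B-like cells (101 cells) and 12.6% in fibroblast-like cells (137 cells). Among the compared classes, monocyte- or dendritic-like cells (12.6%) and neuroblast-like cells (11.6%) were highest. Endothelial-like cells followed with 7.58%, border-associated macrophage-like cells with 7.27%, microglia-like cells with 5.77%, pericyte-like cells with 5.52% and ependymal-like cells with 5.19%. Oligodendrocyte-like cells (3.90%), choroid plexus-like cells (3.66%) and astrocyte-like cells were lowest. Neighbours in this order overlapped between NC libraries in 3 places. The range of pericyte-like cells (5.30% to 5.73%) overlapped those of ependymal-like cells (4.90% to 5.45%) and, at its upper end, microglia-like cells (5.72% to 5.80%). The ranges of monocyte- or dendritic-like cells (11.9% to 13.03%) and neuroblast-like cells (11.4% to 11.94%) also touched. The libraries of the other neighbouring classes did not overlap.

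**Figure D1:**
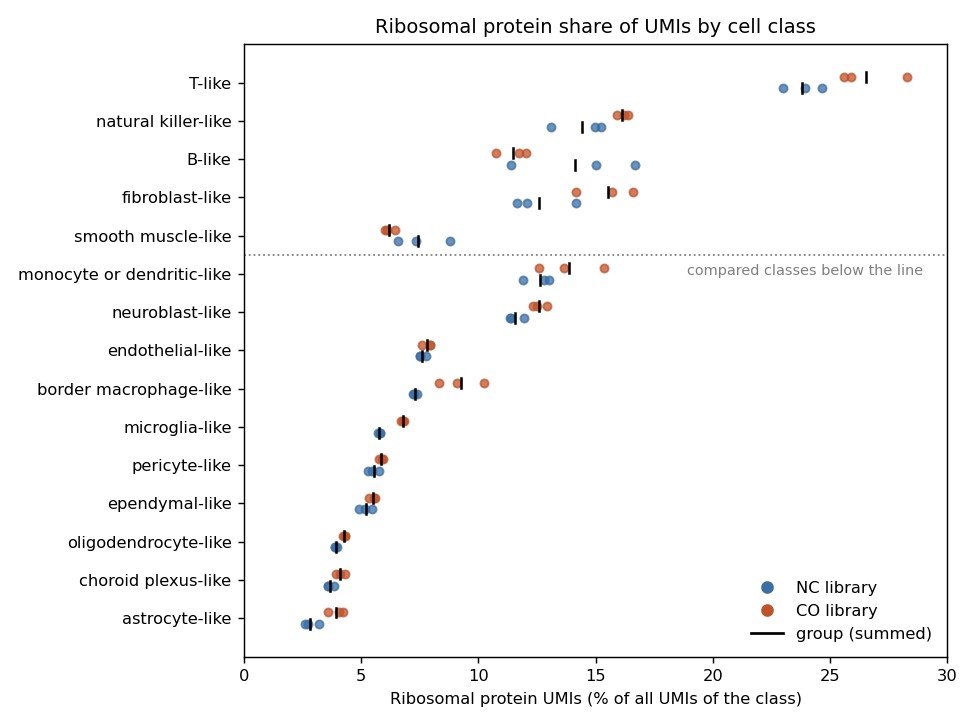
Ribosomal protein UMIs as a percentage of all UMIs of a class (x axis, linear), for 10 compared classes below the dotted line and 5 smaller classes above it. Each point is 1 library (blue NC, orange CO) and the black bar is the group's summed share. T-like cells sit highest at 23.8% in NC, astrocyte-like cells lowest at 2.82%, and the CO bar lies to the right of the NC bar in all 10 compared classes, by little in endothelial-like cells.

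Over all kept cells, members held 5.96% to 6.002% of the UMIs in the NC libraries and 7.25% to 7.35% in the CO libraries, a ratio of CO over NC of 1.22 (95% exact binomial interval 1.219 to 1.221, which like all intervals here covers counting error only). The mix of cells differed as well: oligodendrocyte-like cells, with their low share, made up 23.9% of the compared NC cells but 10.7% of the CO cells, and neuroblast-like cells, with their high share, 2.54% and 8.03%. When each class was weighted by its number of cells, the mean share was 5.74% in NC and 6.96% in CO. With the CO classes weighted by the NC numbers it was 6.44%, and with the NC classes weighted by the CO numbers 6.17%.

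Within classes, the summed share was higher in CO in all 10. Astrocyte-like cells differed most, with 2.71%, 3.18% and 2.58% in NC and 4.21%, 3.57% and 4.04% in CO, a ratio of 1.39 (1.376 to 1.404). Every CO library lay above every NC library there. Border-associated macrophages, the phagocytes of the brain's surfaces and vessels, came next. Their share was 7.26%, 7.37% and 7.19% in NC and 8.34%, 9.10% and 10.2% in CO, a ratio of 1.27 (1.27 to 1.28). Again no CO library overlapped an NC library, and with 1 library left out at a time the ratio lay between 1.20 and 1.33. Microglia-like cells, the resident phagocytes and the largest class (5869 NC and 6126 CO cells), held 5.80%, 5.72% and 5.79% in NC and 6.77%, 6.70% and 6.84% in CO, a ratio of 1.17 (1.17 to 1.18), again with no overlap between groups.

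The other 7 classes differed less. Choroid plexus-like cells had a ratio of 1.12 (1.11 to 1.12), oligodendrocyte-like cells of 1.09 (1.09 to 1.10), neuroblast-like cells of 1.09 (1.08 to 1.09) and pericyte-like cells of 1.06 (1.05 to 1.07), each with every CO library above every NC library. In monocyte- or dendritic-like cells (1.096, 1.088 to 1.104), ependymal-like cells (1.06, 1.05 to 1.06) and endothelial-like cells (1.03, 1.027 to 1.033) the libraries of the groups overlapped. The direction of the monocyte- or dendritic-like share turned under a stricter marker gate (ratio 0.970), and that of the ependymal-like share turned when cells were thinned to 2000 UMIs (0.977). Of the smaller classes, T-like cells held 23.8% in NC and 26.6% in CO (190 and 84 cells), and fibroblast-like cells 12.6% and 15.5% (137 and 87 cells). The summed share was lower in CO in B-like cells (14.1% and 11.5%, 101 and 31 cells) and smooth muscle-like cells (7.40% and 6.17%, 68 and 46 cells). The libraries of B-like cells overlapped between groups, and those of smooth muscle-like cells did not. Barcodes gated by hemoglobin genes, whose leading genes include those of other classes, held 6.68% in NC and 5.32% in CO.

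The share also differed with the depth of a cell. In microglia-like cells with 500 to 1000 UMIs the median share was 10.8% in NC and 12.5% in CO, and in those with 5000 to 10000 UMIs 5.41% and 6.48%. CO exceeded NC in each of the 5 depth bins in which both groups had microglia-like cells, from 500 to 20000 UMIs. The median microglia-like cell held 5.54% in NC and 6.43% in CO, and after every cell was thinned to 2000 UMIs 5.45% (5434 cells) and 6.35% (5721 cells). Astrocyte-like cells had a median of 3424 UMIs in NC and 2133 in CO. Their median share was 1.74% and 3.47% as counted, and 1.35% and 2.05% after thinning, which 356 and 377 cells were deep enough to enter. In border-associated macrophage-like cells the thinned medians were 5.28% and 7.20%. Choroid plexus-like cells had a median of 32195 UMIs in NC and 4754 in CO. Below 1000 UMIs their median share was higher in NC (10.1% and 5.74%), and above 20000 UMIs higher in CO (3.63% and 4.21%), so the direction there depended on depth. Oligodendrocyte-like cells likewise held more in NC below 5000 UMIs (3.78% and 3.39% between 2000 and 5000) and more in CO above (3.89% and 4.40% between 10000 and 20000). In other classes the median was higher in NC in single bins, among them pericyte-like cells of 500 to 1000 (2.24% and 1.94%) and 1000 to 2000 UMIs (4.38% and 4.11%) and endothelial-like cells of 1000 to 2000 UMIs (7.09% and 5.73%). The same held at 10000 to 20000 UMIs in astrocyte-like cells (3.88% in 25 NC cells and 3.29% in 49 CO cells) and border-associated macrophage-like cells (9.77% and 8.57%, 23 cells each).

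Counted per cell, microglia-like cells held a mean of 303 ribosomal protein UMIs in NC and 416 in CO, while all their UMIs averaged 5249 and 6149 per cell. Border-associated macrophage-like cells held 328 and 487, endothelial-like cells 397 and 513, and astrocyte-like cells 114 and 156 ribosomal protein UMIs. In choroid plexus-like cells the number per cell was lower in CO (1112 and 964). Transcripts that the markers assign to other cells moved as well. Summed over 9 choroid plexus markers, Ttr among them and all 9 detected, microglia-like cells held 994 to 1055 counts per 1000000 UMIs (CPM) in the NC libraries and 424 to 459 in the CO libraries, and endothelial-like cells 989 to 1056 and 394 to 431. The part of such stray RNA in the ribosomal protein share was not tested. Oligodendrocyte markers held 1168 to 1175 CPM in NC and 1451 to 1472 CPM in CO in microglia-like cells, and astrocyte markers 348 to 364 and 478 to 504 CPM. Microglia's own 11 markers summed to 16948 CPM in NC and 17078 in CO, mostly from C1qa (8617 and 8852 CPM). The homeostatic markers P2ry12 (329 and 218 CPM), Cx3cr1 (732 and 599 CPM), Sall1 (591 and 467 CPM) and Gpr34 (549 and 427 CPM) were each lower in CO. The part of these in the share was not tested. Immediate early genes, which respond within minutes to tissue handling, were listed together with the heat shock genes Hspa1b, Dnajb1, Hspa8 and Hsp90aa1. This list held 3.95% of microglia-like UMIs in NC and 3.17% in CO, and its part in the difference was not tested.

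Single members were compared as the log2 ratio of CO over NC of summed counts, scaled to CPM with TMM factors, in each class. The interval after a ratio is its 95% exact binomial interval. A gene entered with at least 30 UMIs over both groups. It was taken as higher where CO was at least 25% above NC, and as lower where NC was at least 25% above CO. In microglia-like cells 77 members entered. Of these, 26 were higher in CO, against 16.4% of the 11468 genes that entered, and 4 were lower, against 19.1% of all genes. All 26 were canonical. The median log2 ratio of the 67 canonical members was 0.23 and that of all genes close to 0; 62 canonical members lay above 0 and 5 below. In 61 of the 77 members every CO library lay above every NC library, which held for 23.1% of all genes, and in 2 every CO library lay below, which held for 23.2%. Libraries separate more easily for genes counted often, as most members were, so these shares are not a background of like level.

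**Figure D2:**
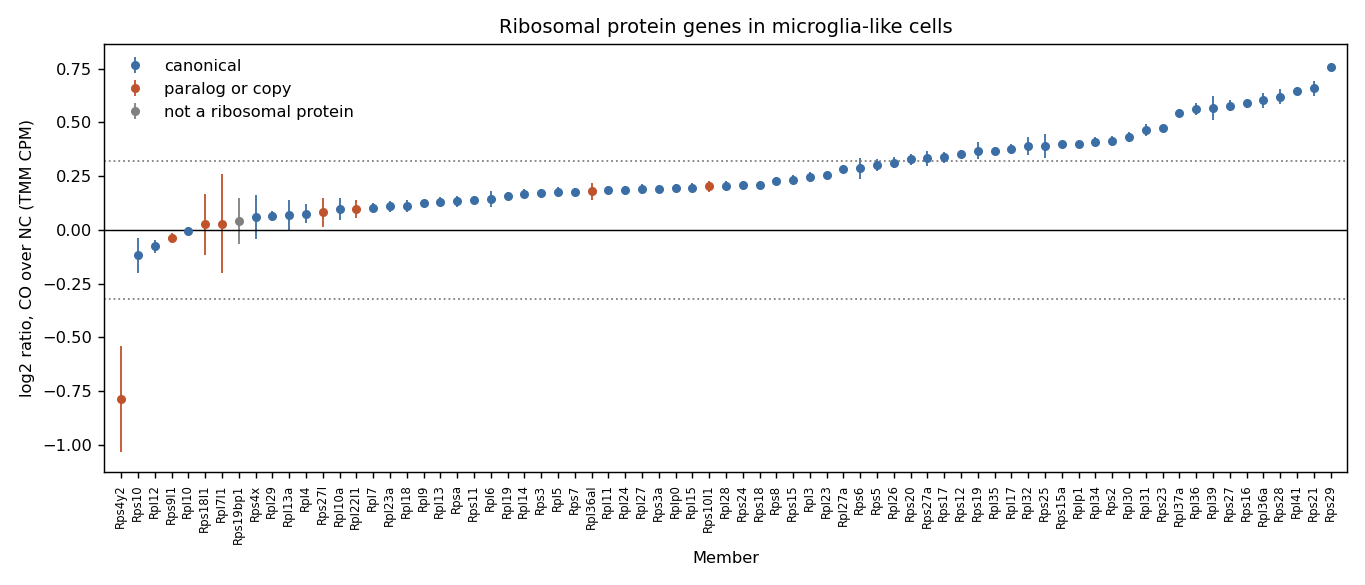
log2 ratio of CO over NC (y axis, TMM-scaled CPM) of members with at least 200 UMIs in both groups of microglia-like cells, ordered from lowest to highest along the x axis. Points are group values, bars 95% exact binomial intervals that cover counting error only, dotted lines mark the 25% threshold, and colour gives the kind of symbol. Most points lie between 0 and 0.5, Rps29 is highest at 0.76 and Rps4y2 lowest at -0.79.

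The members with the highest ratios in microglia-like cells were mostly ones that encode very small proteins. Rps29, a zinc-binding protein of the small subunit, held 1140, 1116 and 1087 CPM in NC and 1822, 1925 and 1898 CPM in CO, a log2 ratio of 0.76 (0.74 to 0.77). Rps21, also of the small subunit, held 309, 300 and 303 CPM in NC and 486, 472 and 480 CPM in CO (0.66, 0.62 to 0.69). In both genes every CO library stood well above every NC library. Rpl41, a short basic peptide of the large subunit, held 1267, 1283 and 1255 CPM in NC and 1987, 1980 and 1985 CPM in CO (0.65, 0.63 to 0.66). Rps28, which sits near the mRNA exit of the small subunit, held 327, 323 and 325 CPM in NC and 506, 500 and 492 CPM in CO (0.62, 0.59 to 0.66). Rpl36a of the large subunit (0.60, 0.57 to 0.64) and Rps16 of the small subunit, a protein near the decoding site (0.59, 0.57 to 0.61), completed the top 6.

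At the other end were members that did not follow the family. Rps4y2, a paralog of Rps4x, held 8.5, 10.0 and 13.2 CPM in NC and 4.9, 4.7 and 8.7 CPM in CO (-0.79, -1.04 to -0.54), and the libraries overlapped. Its 335 and 228 UMIs were few beside those of most members. Over the 8 classes in which Rps4y2 entered, it was at least 25% higher in CO in 4 and lower in 3, with log2 ratios from -0.84 to 2.23. Rps10 held 69.5, 75.2 and 77.0 CPM in NC and 69.7, 67.3 and 67.4 CPM in CO (-0.12, -0.20 to -0.04), again overlapping. Rpl12, which forms the base of the stalk that calls elongation factors to the ribosome, held 576, 586 and 572 CPM in NC and 549, 539 and 555 CPM in CO (-0.08, -0.11 to -0.05). Rpl12 was thus lower in every CO library, by a small amount. Rps9l1 (-0.04, -0.06 to -0.02), Rpl10 (-0.01, -0.02 to 0.01) and Rps18l1 (0.03, -0.12 to 0.17) completed the lowest 6. Rpl10, which joins the large subunit last and permits the subunits to join, held between 1182 and 1230 CPM in all 6 libraries. The 4 members counted as lower were Rps4y2, Rpl10l (44 and 25 UMIs, -1.05, -1.82 to -0.31), Rpl21 (18 and 12 UMIs) and Rplp2 (35 and 25 UMIs), and the intervals of the last 2 include 0.

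Other well-known members lay between these ends in microglia-like cells. Of the stalk proteins, Rplp0 held 1195 CPM in NC and 1368 in CO (0.19, 0.18 to 0.21), and Rplp1 2612 and 3443 CPM (0.40, 0.39 to 0.41). Rpsa, which is also known as a laminin receptor precursor, had a log2 ratio of 0.13 (0.11 to 0.16), and Rps3, which lines the mRNA entry, of 0.17 (0.15 to 0.19). Rps6, the target of the S6 kinases downstream of mTOR, had a ratio of 0.29 (0.24 to 0.34), Rps19, the gene most often mutated in human Diamond-Blackfan anemia, of 0.37 (0.33 to 0.41), and Rps27a, made as a fusion with ubiquitin, of 0.33 (0.30 to 0.37). Rpl3, near the catalytic centre, stood at 0.25 (0.22 to 0.27). Rpl5 and Rpl11, which carry 5S RNA into the ribosome and bind Mdm2 when ribosome assembly fails, stood at 0.17 (0.15 to 0.20) and 0.18 (0.16 to 0.20). Small-subunit canonical members had a median log2 ratio of 0.33 and large-subunit members of 0.19 in this class. The small-subunit median exceeded the large-subunit median in all 10 compared classes, with the medians closest in astrocyte-like cells (0.56 and 0.54), and this difference was not tested.

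Astrocyte-like cells showed the family's widest shift. Of 74 members that entered, 52 were higher in CO, against 27.1% of all genes, and 2 lower, against 27.6%. The canonical median was 0.55 and the median of all genes 0.01. Rpl37a, a zinc-binding large-subunit protein, held 412, 399 and 395 CPM in NC and 869, 687 and 951 CPM in CO (1.05, 0.94 to 1.17), and Rps27, another zinc-binding protein, 361, 323 and 367 CPM in NC and 646, 666 and 688 CPM in CO (0.93, 0.81 to 1.06). The lowest ratios were those of Rpl12 (-0.02, -0.19 to 0.15) and Rps6 (-0.02, -0.26 to 0.23), which both overlapped between groups and changed sign when single libraries were left out. Markers of monocyte- or dendritic-like cells held 53.3 to 100 CPM in the NC and 93.6 to 645 CPM in the CO libraries of this class, and their part in these ratios was not tested.

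In border-associated macrophage-like cells 42 of 73 members were higher, against 27.5% of all genes, and 1 lower, against 29.1%. The canonical median was 0.36, with 63 of 65 canonical members above 0. Rps29 held 1524, 1493 and 1430 CPM in NC and 2424, 2680 and 2872 CPM in CO (0.85, 0.79 to 0.91), and Rpl36a was next (0.79, 0.66 to 0.92). Rpl12 (-0.24, -0.36 to -0.11) and Rps9l1 (-0.18, -0.26 to -0.10) were lowest, with overlapping libraries. Rpl12 stood at -0.07 without CO replicate 1 and at -0.48 without CO replicate 3. The count of higher members fell to 25 under the stricter gate and lay between 29 and 48 when 1 library was left out. All 11 endothelial markers were detected in this class, at 325 to 475 CPM in the NC and 124 to 209 CPM in the CO libraries, all 9 choroid plexus markers at 1163 to 1262 and 510 to 732 CPM, and all 12 oligodendrocyte markers at 855 to 1178 and 1282 to 1448 CPM. Their part was not tested. In monocyte- or dendritic-like cells 24 of 73 members were higher, against 31.9% of all genes, and 3 lower, against 30.6%. The share of higher members was thus close to that of all genes, while 51 canonical members lay above 0 and 14 below. Rpl36 held 754, 661 and 885 CPM in NC and 1351, 1215 and 1491 CPM in CO (0.84, 0.72 to 0.97) and Rps29 followed (0.74, 0.66 to 0.83). Rpl22l1 held 756, 767 and 885 CPM in NC and 739, 413 and 416 CPM in CO (-0.64, -0.78 to -0.49), and Rpl12 was second lowest (-0.49, -0.61 to -0.37). The count of higher members in this class ranged from 12 under the stricter gate to 38 in thinned cells, and 10 of 11 markers of microglia were detected there, with summed levels of 1880 to 2039 CPM in the NC and 2621 to 4181 CPM in the CO libraries, whose part was not tested.

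In choroid plexus-like cells, the epithelium that makes cerebrospinal fluid, 34 of 75 members were higher, against 25.4% of all genes, and 0 lower, against 26.7%. With total counts in place of TMM factors 22 were higher. All 12 oligodendrocyte markers were detected there, at 668 to 1067 CPM in NC and 233 to 243 CPM in CO, all 11 microglia markers at 215 to 282 and 353 to 486 CPM, and 6 of 7 oligodendrocyte precursor markers at 80.2 to 93.4 and 171 to 226 CPM, and their part was not tested. Rpl22l1 held 337, 352 and 367 CPM in NC and 464, 557 and 593 CPM in CO (0.62, 0.57 to 0.68). Rpl39l had the highest ratio, on low levels of 13.7, 21.4 and 8.0 CPM in NC and 44.0, 23.8 and 30.1 CPM in CO (1.21, 0.95 to 1.46). Rps9l1 (-0.15, -0.21 to -0.09) and Rpl10 (-0.07, -0.12 to -0.03) were lowest, and both turned above 0 in cells thinned to 2000 UMIs (0.08 and 0.10).

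In the other 5 classes the part of members that was at least 25% higher lay close to or below that of all genes. Even so, more canonical members lay above 0 than below in each of them. The numbers were 50 and 16 in endothelial-like, 40 and 25 in pericyte-like and 56 and 11 in oligodendrocyte-like cells. In ependymal-like cells they were 48 and 17, and in neuroblast-like cells 51 and 14. Endothelial-like cells had 14 of 77 members higher, against 23.6% of all genes, and 1 lower, against 25.7%. There Rps29 (0.62, 0.59 to 0.65) and Rps27 (0.49, 0.46 to 0.52) were highest, and Rps18l1 (-0.12, -0.30 to 0.06) was lowest, which without NC replicate 2 stood at 0.04. Monocyte or dendritic markers held 909 to 979 CPM in the NC and 1538 to 1599 CPM in the CO libraries of endothelial-like cells, and their part was not tested. Pericyte-like cells had 12 of 74 higher, against 26.2%, and 1 lower, against 25.6%, with Rps28 (0.64, 0.52 to 0.76) and Rps29 (0.58, 0.50 to 0.67) at the top and Rpl10a (-0.32, -0.50 to -0.14) and Rps4y2 (-0.29, -0.56 to -0.01) at the bottom. Markers of microglia held 1632 to 1915 CPM in NC and 2290 to 2732 CPM in CO there, and their part was not tested. Oligodendrocyte-like cells had 14 of 76 higher, against 17.1%, and 1 lower, against 17.7%. Rps29 (0.48, 0.45 to 0.52) and Rpl36 (0.47, 0.43 to 0.51) led there, and Rps19bp1 (-0.28, -0.39 to -0.17) and Rps9l1 (-0.19, -0.22 to -0.15) were lowest.

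Ependymal-like cells, the ciliated lining of the ventricles, had 14 of 72 members higher, against 28.2%, and 2 lower, against 28.3%. Rpl39, which lines the exit tunnel for the new protein chain (0.65, 0.45 to 0.86), and Rpl37a (0.61, 0.52 to 0.70) were highest. Rpsa held 1004, 911 and 831 CPM in NC and 709, 663 and 671 CPM in CO (-0.42, -0.51 to -0.33), so that every CO library lay below every NC library, and Rpl12 was also low (-0.30, -0.43 to -0.17). Markers of microglia held 267 to 325 CPM in the NC and 573 to 696 CPM in the CO libraries of this class, endothelial markers 86.1 to 130.02 and 515 to 640 CPM, and oligodendrocyte markers 554 to 3597 and 312 to 365 CPM, and their part was not tested. Neuroblast-like cells had 12 of 74 higher, against 24.0%, and 3 lower, against 20.8%. Rps29 (0.64, 0.59 to 0.69) and Rpl39 (0.45, 0.35 to 0.55) were highest, and Rps19bp1 (-0.47, -0.65 to -0.28) and Rpl22l1 (-0.22, -0.30 to -0.13) lowest. Without NC replicate 1 the ratio of Rpl22l1 was -0.0089. Monocyte or dendritic markers held 189 to 242 CPM in NC and 380 to 447 CPM in CO, and their part was not tested. In all 10 classes the canonical median exceeded the median of all genes, by the least in pericyte-like cells (0.06, with all genes close to 0).

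**Figure D3:**
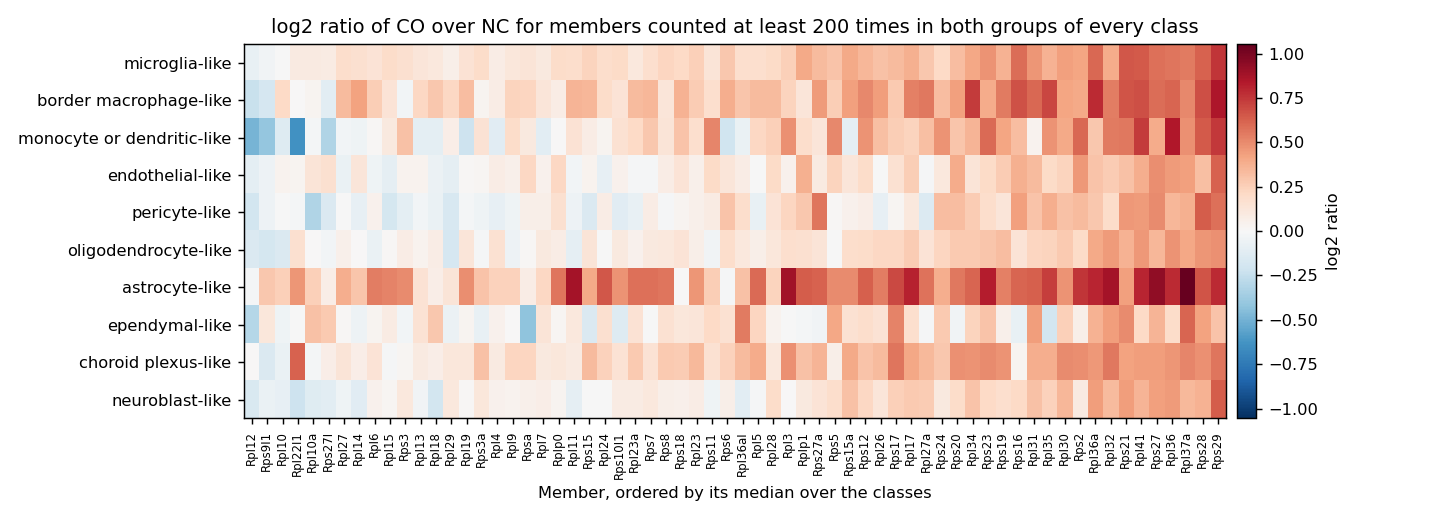
log2 ratio of CO over NC (colour scale, red higher in CO, blue lower) for 64 members with at least 200 UMIs in both groups of every compared class (x axis, ordered by median over classes) in the 10 classes (y axis). The members at the right end, Rps28 and Rps29 among them, are red in every row; astrocyte-like cells are red across most of the row, and Rpl12 at the left end is pale or blue.

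Across classes the same few members recurred at the top. Rpl37a and Rps27 were higher by at least 25% in all 10 classes, Rpl36, Rpl41, Rps21, Rps28 and Rps29 in 9, and Rpl32 and Rpl39 in 8. Of 72 members that entered in all classes, 14 were higher by at least 25% in none, among them Rpl4, Rpl7, Rpl9, Rpl13, Rpsa and Rps3a. How many of all genes were higher in as many classes, or in none, was not counted. Within single classes the share of all genes that was higher ran from 16.4% in microglia-like to 31.9% in monocyte- or dendritic-like cells. Rpl12 lay below 0 in 9 of 10 classes, and Rps9l1 and Rps18l1 in 8. Rps29 in single classes ranged from 0.30 (0.20 to 0.40) in ependymal-like cells, where it held 702, 650 and 567 CPM in NC and 747, 824 and 785 CPM in CO, to 0.85 in border-associated macrophage-like cells.

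A set of 7 canonical members that encode very small proteins (Rps21, Rps27, Rps28, Rps29, Rpl37a, Rpl39 and Rpl41) was drawn together after the values were seen, and is described with no test. The paralog Rps27l encodes a protein about as small as that of Rps27 and is not in the set. Its log2 ratio lay between -0.31 in monocyte- or dendritic-like and 0.27 in ependymal-like cells, below 0 in 5 of 10 classes and past the 25% threshold in 0. In microglia-like cells the log2 ratios of the 7 lay between 0.54 and 0.76 with a median of 0.62, while the other 60 canonical members had a median of 0.20. Their median was 0.66 in border-associated macrophage-like, 0.80 in astrocyte-like, 0.55 in monocyte- or dendritic-like, 0.48 in choroid plexus-like, 0.45 in pericyte-like, 0.43 in neuroblast-like, 0.42 in ependymal-like, 0.42 in endothelial-like and 0.41 in oligodendrocyte-like cells. The medians of the other canonical members in the same classes ran from 0.04 in pericyte-like to 0.53 in astrocyte-like cells. As a part of all ribosomal protein UMIs, which needs no scaling between libraries, the 7 genes made up 8.55% to 8.71% in the NC libraries and 10.9% to 11.1% in the CO libraries of microglia-like cells. In endothelial-like cells, whose total share hardly differed, they made up 8.96% to 9.13% in NC and 10.9% to 11.2% in CO. They were higher in every CO library than in every NC library of each of the 10 classes. Because the 7 were drawn together after the values were seen, this separation is a description and no separate support. With Rps27l added as an eighth gene, the median was 0.60 in microglia-like cells and 0.39 to 0.79 in the other classes.

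**Figure D4:**
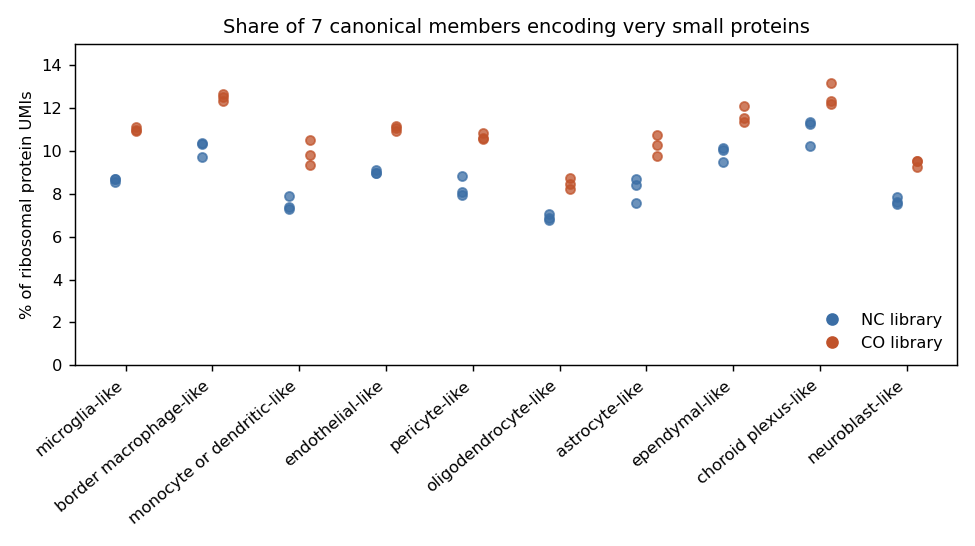
Summed UMIs of Rps21, Rps27, Rps28, Rps29, Rpl37a, Rpl39 and Rpl41 as a percentage of all ribosomal protein UMIs (y axis, from 0) in each library of the 10 compared classes (x axis). Blue points are NC and orange points CO libraries. In microglia-like cells the NC points lie at 8.55% to 8.71% and the CO points at 10.9% to 11.1%. The 2 colours do not overlap in any class, for genes drawn together after the values were seen.

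Members that encode large proteins (Rpl3, Rpl4, Rpl5, Rpl6, Rpl7, Rplp0, Rpsa, Rps2, Rps3, Rps3a, Rps4x and Rps6, drawn together in the same way) had a median of 0.17 in microglia-like cells, with Rps2 highest at 0.41. As a part of ribosomal protein UMIs they held 14.3% to 14.4% in the NC libraries and 13.4% to 13.6% in the CO libraries of that class. Genes outside the ribosome that also encode small proteins had lower ratios than the 7 in microglia-like cells. Of 33 such genes listed after the values were seen, among them respiratory chain and ATP synthase subunits, 27 entered in microglia-like cells. Their median was 0.26, and 10 of them were higher by at least 25%, against 16.4% of all genes, and 1 lower, against 19.1%. Tomm7 of the mitochondrial import pore (0.46, 0.40 to 0.51) and Cox6c of cytochrome c oxidase (0.45, 0.41 to 0.48) were highest among these and Dynll1, a dynein light chain (-1.08, -1.13 to -1.03), lowest. The medians of these genes outside the ribosome ran from -0.01 in pericyte-like to 0.53 in astrocyte-like cells. They exceeded those of the canonical members outside the 7 in microglia-like (0.26 and 0.20), ependymal-like (0.31 and 0.12), choroid plexus-like (0.37 and 0.25) and oligodendrocyte-like cells (0.19 and 0.13). In monocyte- or dendritic-like (0.13 and 0.19) and pericyte-like cells (-0.01 and 0.04) they lay below. Both medians were close in astrocyte-like, border-associated macrophage-like, endothelial-like and neuroblast-like cells. Transcript lengths were not analysed here, so whether these ratios follow the length of the mRNA was not tested.

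The ribosomal protein UMIs were not made up alike in every class. Of 65 members with at least 200 UMIs in NC in each compared class, the part of ribosomal protein UMIs differed between the highest and the lowest class by a median of 1.63-fold. The paralog Rps27l, a p53 target in human cells, varied most, 4.27-fold. It made up 0.175% to 0.187% in the NC libraries of microglia-like cells, 0.680% to 0.748% in ependymal-like and 0.729% to 0.799% in choroid plexus-like cells. Rpl36al, the paralog of Rpl36a, made up 0.945% to 0.962% in oligodendrocyte-like, 0.825% to 1.05% in choroid plexus-like and 0.277% to 0.333% in neuroblast-like cells. Both paralogs were thus highest in epithelial or glial classes, without overlap between the libraries of the classes named as high and low.

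Rpl10 made up 2.90% to 4.30% of the ribosomal protein UMIs of monocyte- or dendritic-like cells in NC, 2.12% to 2.15% in microglia-like and 1.27% to 1.32% in endothelial-like cells. Rps16 reached 4.05% to 4.42% in choroid plexus-like cells against 1.51% to 1.65% in border-associated macrophage-like cells. For Rps12 of the small subunit, microglia-like cells were highest with 2.69% to 2.75% and ependymal-like cells lowest with 0.970% to 1.05%. Rpl41 was high in choroid plexus-like (4.61% to 5.32%) and ependymal-like cells (4.00% to 5.06%) and lowest in oligodendrocyte-like cells (1.85% to 1.90%). In CO, Rps27l was again highest in ependymal-like (0.718% to 0.827%) and choroid plexus-like cells (0.641% to 0.700%), and Rps16 in choroid plexus-like cells (3.51% to 3.75%), where it was below the NC range.

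**Figure D5:**
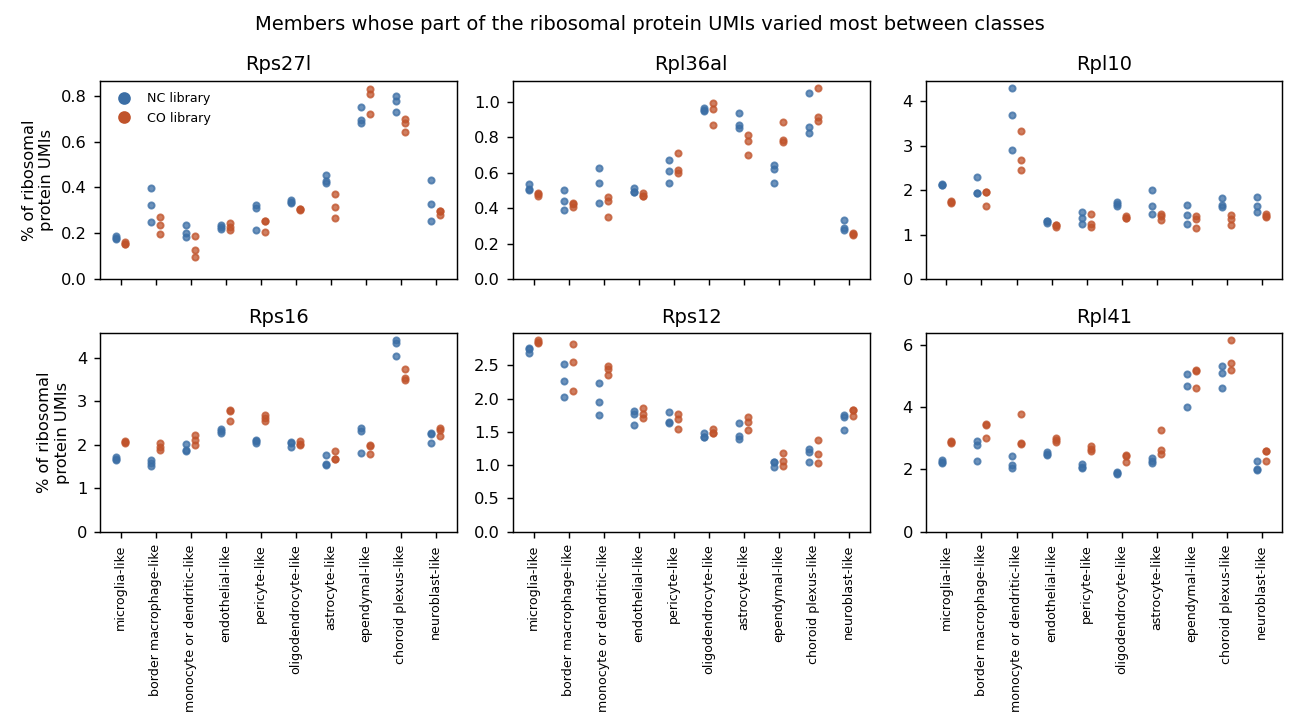
The 6 members whose part of all ribosomal protein UMIs differed most between classes in NC; each panel shows 1 gene, with the percentage of ribosomal protein UMIs on the y axis (from 0) and the 10 compared classes on the x axis. Points are libraries (blue NC, orange CO). Rps27l and Rpl41 stand high in ependymal-like and choroid plexus-like cells, Rps16 in choroid plexus-like cells and Rpl10 in monocyte- or dendritic-like cells, while Rps12 is highest in microglia-like cells.

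Several values of single members are uncertain because ribosomal protein genes have many near-identical copies in the genome, among which an aligner can split or drop reads. RefSeq symbols of the GRCr8 build that share a member's stem number 18 for Rps9 and Rps9l1, 21 for Rps10 and Rps10l1, 14 for Rpl21 and 6 for Rplp2. Over all kept cells Rplp2, the partner of Rplp1 in the stalk, was counted only 107 times in NC and 146 times in CO, and Rpl21 128 and 91 times, although their protein products are part of every ribosome. The copy Rps10l1 (95580 and 103068 UMIs) was counted far more often than Rps10 (10190 and 9839 UMIs), and Rps9l1 held 121908 and 117045 UMIs while Rps9 was not analysed here. Rps4x (6153 and 6642 UMIs) and Rps4y2 (4043 and 4414 UMIs) may likewise share reads. The levels of these members, and a ratio such as that of Rps9l1 or Rps4y2, cannot be assigned to 1 gene of their family.

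Paralogs known from other tissues were rare. Rpl3l, a muscle paralog of Rpl3, had 50 UMIs in NC and 57 in CO over all kept cells, and Rpl10l, a testis paralog of Rpl10, 92 and 69. Rpl39l had 430 and 440 UMIs and reached 200 in both groups only in choroid plexus-like cells. Of the 83 members, 4 entered in no class (Rps15al4, Rps19l2, Rpl30l1 and Rpl35al1). Rpl22l1 was counted 51706 and 48458 times. In NC it made up 1.11% of the ribosomal protein UMIs of astrocyte-like and 0.435% of those of microglia-like cells.

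Other genes of the translation machinery had lower medians than the family in microglia-like cells. Of 24 translation factors and further genes whose mRNAs begin with a TOP tract, 3 were higher (16.4% of all genes) and 0 lower (19.1%) in microglia-like cells, with a median of 0.09 beside a median close to 0 for all genes. Among them were Fau (0.38, 0.36 to 0.39), which encodes ribosomal protein S30 fused to a ubiquitin-like protein, and the intermediate filament gene Vim (0.74, 0.59 to 0.90). The elongation factors Eef1a1 (0.22, 0.18 to 0.26) and Eef2 (0.06, 0.01 to 0.12) and Tpt1 (0.07, 0.06 to 0.08) stood below them. In astrocyte-like cells 13 of the 24 were higher (27.1% of all genes) and 0 lower (27.6%), with a median of 0.35, and in border-associated macrophage-like cells 9 were higher (27.5% of all genes) and 1 lower (29.1%), with a median of 0.14.

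Of 35 genes of ribosome assembly in the nucleolus, 6 were higher (16.4% of all genes) and 3 lower (19.1%) in microglia-like cells. The part that was higher was thus close to that of all genes. Their median was 0.01 and turned to -0.05 with total counts in place of TMM factors. Gnl3 (0.40, 0.31 to 0.49), Tsr1 (0.41, 0.23 to 0.60) and Ltv1 (0.34, 0.23 to 0.45) were among the higher, the last 2 of which serve the maturation of the small subunit, and Bop1 (-0.57, -0.84 to -0.30), Nop16 (-0.42, -0.52 to -0.32) and Nop2 (-0.39, -0.62 to -0.15) were the lower. In endothelial-like cells 17 of 35 were higher, against 23.6% of all genes, and 2 lower, against 25.7% (median 0.28), although the canonical ribosomal proteins had a median of 0.13 there. Of 21 genes of mTOR and TOP control, 2 were higher (16.4% of all genes) and 2 lower (19.1%) in microglia-like cells (median -0.01). Eif4g1 (0.40, 0.26 to 0.54) and Tsc1 (0.41, 0.16 to 0.66) were higher. Sesn2, a stress-induced inhibitor of mTOR (-0.36, -0.46 to -0.26), and Larp1b (-0.47, -1.03 to 0.10, on 60 and 51 UMIs) were lower. Larp1, which binds TOP mRNAs, had a ratio of 0.19 (0.11 to 0.27).

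Protein subunits of other complexes gave a comparison, to be read against 16.4% of all genes higher and 19.1% lower in microglia-like and 27.1% and 27.6% in astrocyte-like cells. The 75 genes of mitochondrial ribosomal proteins had a median of -0.05 in microglia-like cells, with 3 higher and 5 lower, and 0.23 in astrocyte-like cells, with 28 of 73 higher and 5 lower. Proteasome subunits had a median of -0.01 in microglia-like cells (1 of 38 higher and 1 lower, the latter Psmc3ip, which binds a subunit and is none itself) and 0.27 in astrocyte-like cells (15 of 37 higher, 2 lower). Immediate early and dissociation genes had a median of -0.23 in microglia-like and -0.70 in oligodendrocyte-like cells, where 14 of 16 were lower, against 17.7% of all genes. Hemoglobin genes were at a median of -0.33 in microglia-like cells, on 3 genes, and cell cycle genes at 1.09, with 7 of 11 higher. Top2a was highest among these (27 and 311 UMIs, log2 ratio 3.29) and Mcm5 lowest (3345 and 2252 UMIs, -0.80), and together they made up 0.0286% of microglia-like UMIs in NC and 0.0273% in CO. In astrocyte-like cells their median was -1.07.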

How the data were processed

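The deposited values are raw UMI counts per gene and barcode, without normalization, in 6 libraries. Cell Ranger (version not stated here) and the build Rnor_6.0 are named as the origin of the counts by the submitters' processing notes. Genes number 15227, mitochondrially encoded genes were not analysed here, and no column of per-sample values was left unused. The members and all lists were chosen with earlier results of these data known, and the gate's thresholds after its cell numbers were seen.

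Barcodes needed 500 UMIs and 200 genes to enter. Each marker was scaled to a z score (at most 5) of log counts per 10000, averaged per class; the best class needed a mean of 0.3 and 3 detected markers, and a barcode was left out as mixed if another class with 3 markers reached 0.5 of that mean. Of the cells placed, 599 lay within 0.1 of the minimum. Doublets were otherwise kept in the main values; Scrublet in scanpy 1.11.5 served as an alternative, with the highest 6% of scores removed in CO replicates 1 and 3, where it marked 2 and 1 barcodes. Barcodes gated by hemoglobin genes were not compared.

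Summed counts of each class in each group were scaled with TMM factors (edgeR 4.0.16, R 4.3.3) to CPM. Ratios are CO over NC with 95% exact binomial intervals, and shares have exact Clopper-Pearson intervals (scipy 1.17.1); PCR and sampling of animals are not covered, so intervals hold counting error only. No test across libraries was made, since the libraries of a group differed about as parts of 1 pool of cells and were counted as 1 sample. Named genes were the 6 highest and 6 lowest ratios in microglia-like cells and 2 each way in the other classes, with at least 200 UMIs in each group, the 6 members that varied most between classes in NC, and a fixed list of 24, of which 21 were analysed. Some of these values are not reported here. Other genes named in the text were chosen after their values were seen. The calculation was tested on simulated counts. Alternatives were other scaling (total counts, median of ratios, or factors without the members), filters of 1 and 200 counts, a minimum of 2000 UMIs, thinning, a stricter gate, doublet handling, canonical members only, no gate and each library left out.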

Additional observations from a re-analysis of the deposited data

Results flagged for a closer look

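Rpl22l1, the paralog of Rpl22, moved in opposite directions in 3 classes, with every CO library on 1 side of every NC library in each. In monocyte- or dendritic-like cells this separation was narrow. Its log2 ratio of CO over NC was 0.46 in astrocyte-like cells, 0.62 in choroid plexus-like cells and -0.64 in monocyte- or dendritic-like cells. With single libraries left out, the last of these lay between -0.95 and -0.43. Microglia markers in that class held 1880 to 2039 CPM in the NC and 2621 to 4181 CPM in the CO libraries. Choroid plexus-like cells had a median of 32195 UMIs in NC and 4754 in CO. The part of these in the ratios, and the difference between classes, was not tested.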

How the results depend on the processing

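No paired analysis was possible because the results come from no test: the libraries of a group were counted as 1 sample, and a test over the 3 libraries of each group was left out by that choice. The summed share was higher in CO in 10 of 10 classes under every alternative except thinning and the stricter gate, with 9 each. The median of all members exceeded that of all genes in 10 classes, and in 9 with mixed barcodes kept (difference -0.0055 in monocyte- or dendritic-like cells). The members at least 25% higher, 244 over the 10 classes, numbered 207 to 270 under the alternatives, and in microglia-like cells, 26, 19 (total counts) to 29 (no filter). In single classes the count changed by over 1.5 times in endothelial-like cells (14, and 7 with total counts), oligodendrocyte-like cells (14, and 8 thinned) and ependymal-like cells (14, and 7 thinned). It also did so in border-associated macrophage-like, monocyte- or dendritic-like and choroid plexus-like cells, with the values given above for these classes. The microglia-like share ratio of 1.17 was 1.176 in cells of at least 2000 UMIs, 1.16 in thinned cells, 1.16 under the stricter gate, 1.17 without Scrublet doublets and 1.18 for canonical members, and 1.167 to 1.179 when single libraries were left out. The ratio over all kept cells of 1.22 was 1.215 to 1.224 when single libraries were left out. The weighted ratio of 1.21 was 1.12 at NC cell numbers. Values that turned were the ependymal-like share ratio in thinned cells (0.977), the monocyte- or dendritic-like ratio under the stricter gate (0.970), Rpl10 and Rps9l1 in thinned choroid plexus-like cells (0.10 and 0.076), Rps4y2 in pericyte-like cells with mixed barcodes kept (0.40), and the ribosome assembly median in microglia-like cells with total counts (-0.0505). With single libraries left out, values near 0 also changed sign: Rps18l1 in endothelial-like cells (-0.25 to 0.045), Rpl12 (-0.10 to 0.028) and Rps6 (-0.17 to 0.10) in astrocyte-like cells, and Rpl10 (-0.023 to 0.0072) and Rps4x (-0.0032 to 0.18) in microglia-like cells. The cause was not tested. The members with NC at least 25% above CO, 18 over the classes, numbered 33 with no filter, 9 with a minimum of 200 counts and 6 for canonical members. The median of the 7 canonical small-protein members (without the paralog Rps27l), a set chosen after seeing the data, stayed above 0 in all 10 classes under every setting tried, from 0.27 (thinned ependymal-like cells) to 1.03 (thinned astrocyte-like cells).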
